A study of Mus musculus with 4 samples.

Results

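The glucocorticoid-responsive genes Tsc22d3, Fkbp5, Per1, Txnip and Ddit4 and the receptor gene Nr3c1 were followed through T cells of mouse tumors. They are 6 of the 32285 genes counted, taken by symbol from the gene expression rows of all 4 libraries. Tsc22d3 was chosen by its knockdown levels, being lower in the knockdown libraries in earlier results on these same counts, and the other 5 were added as known partners of the pathway with those results in view. The knockdown values of the 6 genes are therefore given as a description, without a test, and tests were kept for other comparisons.

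The study asked how loss of the immune checkpoint B7-H3 (gene Cd276) in tumor cells changes the T cells in the tumor. Tsc2-deficient 105K cells, a mouse kidney tumor line, carried either the non-targeting hairpin sh-NC (sh_NC in the labels) or the hairpin sh-B7-H3 (1), and grew as subcutaneous tumors in wild-type C57BL/6J mice. Live CD3+ cells sorted from 80 tumors per group were stained with barcoded antibodies and captured with a 3' droplet kit (CITE-seq, which reads mRNA and surface tags from the same cell). Each group had 2 libraries, which the study's text calls separate pools of the group's tumors, though its methods name a single capture lane and the labels do not tie tumors to libraries. All spreads and p-values below speak of the libraries of these pools and not of single mice. Both groups shared the Tsc2 loss and the host. The sh-B7-H3 (1) group stands for a single hairpin in a heterogeneous pool of a single line, and the T cells themselves carried no hairpin.

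In background terms, glucocorticoids enter the cell and bind the glucocorticoid receptor, which Nr3c1 encodes. The receptor leaves a complex with heat shock proteins, moves to the nucleus and binds palindromic DNA elements at target genes. Tsc22d3 encodes GILZ, a leucine zipper protein that is induced by glucocorticoids and by FOXO factors and that dampens AP-1 and NF-kB activity in T cells. Fkbp5 encodes a co-chaperone that lowers the affinity of the receptor for its ligand. Per1 is a clock gene, Ddit4 (REDD1) an inhibitor of mTORC1, and Txnip an inhibitor of thioredoxin and of glucose uptake. All 5 can be raised by glucocorticoids, and each answers to other inputs as well.

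On GRCm38 Tsc22d3 spans chrX:140539528-140600659 on the minus strand, Fkbp5 chr17:28399094-28517527 on the minus strand, Per1 chr11:69095217-69109960 on the plus strand, Txnip chr3:96557957-96561883 on the plus strand and Ddit4 chr10:59949669-59951834 on the minus strand. The counts are 3' UMIs per gene and do not tell transcripts of a gene apart.

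Promoter windows are shown so that the letters before the start of each gene can be read beside its values. Windows of 5 of the 6 genes are given, without Nr3c1, and no link between a motif and a level was tested. The windows come from RefSeq on GRCm38.p6 and hold up to 250 bases before an annotated start, with annotated exons of the same strand left off the printed run. Motifs were searched on both strands over the whole 250 bases, and capitals mark the matches other than CCAAT. Of 3 Tsc22d3 windows and 2 Per1 windows, the one with the receptor arm or the E-box is printed.
Tsc22d3, chrX:140600660-140600772, minus strand: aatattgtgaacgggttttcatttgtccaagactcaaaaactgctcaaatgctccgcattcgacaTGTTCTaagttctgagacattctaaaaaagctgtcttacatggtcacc
Ddit4, chr10:59951835-59952020, minus strand: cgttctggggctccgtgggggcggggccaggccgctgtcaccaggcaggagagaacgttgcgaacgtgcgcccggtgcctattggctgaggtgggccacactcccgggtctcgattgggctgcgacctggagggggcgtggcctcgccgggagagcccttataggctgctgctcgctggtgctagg
Txnip, chr3:96557707-96557956, plus strand: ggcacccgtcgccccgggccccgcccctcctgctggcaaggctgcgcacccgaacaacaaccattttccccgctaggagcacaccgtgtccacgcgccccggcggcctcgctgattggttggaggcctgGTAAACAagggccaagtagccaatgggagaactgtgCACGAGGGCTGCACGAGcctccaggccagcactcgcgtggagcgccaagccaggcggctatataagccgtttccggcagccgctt
Per1, chr11:69098699-69098947, plus strand: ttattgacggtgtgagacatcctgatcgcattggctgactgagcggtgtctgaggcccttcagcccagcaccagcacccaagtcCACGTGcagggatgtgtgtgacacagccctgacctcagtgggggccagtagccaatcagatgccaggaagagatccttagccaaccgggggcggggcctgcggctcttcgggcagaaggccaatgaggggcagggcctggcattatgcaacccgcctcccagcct
Fkbp5, chr17:28486150-28486399, minus strand: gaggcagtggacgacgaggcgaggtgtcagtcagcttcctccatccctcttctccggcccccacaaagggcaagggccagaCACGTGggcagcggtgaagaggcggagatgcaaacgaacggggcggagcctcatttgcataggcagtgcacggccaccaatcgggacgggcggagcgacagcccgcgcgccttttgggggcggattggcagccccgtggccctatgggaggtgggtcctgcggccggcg

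The full palindrome (AGAACA, 3 bases, TGTTCT) lay in none of these windows and in 0.00913% of 32851 promoter windows of 250 bases. Its right arm TGTTCT began at position -185 of the Tsc22d3 window, a match found in 16.1% of all windows. The Txnip window held the FOXO motif GTAAACA at position -121 (3.17% of all windows) and, at position -85, a pair of CACGAG boxes 5 bases apart. That pair fits the carbohydrate response form, searched as 2 CACGNG boxes with that gap, which 0.0457% of all windows held. The E-box CACGTG, the element of the clock factors, began at position -166 in the Per1 window and at position -169 in the Fkbp5 window (6.02% of all windows). The Ddit4 window matched only CCAAT, as 33.8% of windows did. The cAMP response core TGACGT, also searched, lay only in the Per1 window that is not printed (6.47% of all windows), and the other Tsc22d3 windows held no match. A match is a description of letters and not a sign of binding.

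The 4 libraries held 7030 to 12112 called cells and 79224898 to 132820909 RNA UMIs (unique molecules). After filters on genes, mitochondrial UMIs and doublets, 3099 to 6619 cells per library were kept. CD8 cells had at least 3 UMIs of Cd8a plus Cd8b1 and no Cd4 UMI, CD4 cells at least 1 Cd4 UMI, under 3 Cd8 UMIs and no Foxp3 UMI, and Foxp3 cells were the same with at least 1 Foxp3 UMI. Each class was split at 20 Ccl5 UMIs, which sets apart effector cells making this chemokine. Cells at or over the split were 11.24 and 14.02% of called cells in the sh-NC libraries against 53.01 and 52.25% in the sh-B7-H3 (1) libraries. The Foxp3 cells over the split numbered only 9 to 24 per library and were not fitted. Pairs of libraries shared 17 to 35 cell barcodes. Cd276 itself had 9 to 11 UMIs per library among the sorted cells, which cannot check the knockdown, since the hairpin acts in tumor cells. T cell marker genes of the fixed list were detected in every sum, and tumor and stroma markers summed to 2.1 to 30.8 CPM (UMIs of a gene scaled to a common total per sum) in the fitted sums. Under the split, the regulatory markers of the fixed list summed to 1729 to 2155 CPM in Foxp3 cells. In CD4 cells there they differed by group, at 44.9 and 55.1 CPM in the sh-NC and 103 and 103 CPM in the sh-B7-H3 (1) libraries. In CD4 cells over the split they summed to 313 to 373 CPM, and 1 of the 4 listed genes was at 0 in every CD4 sum. CD4 cells were gated to hold no Foxp3 UMI, so a 0 of Foxp3 in these sums is set by the gate.

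The receptor gene Nr3c1 was measured at 59.2 and 58.8 CPM in sh-NC CD4 cells under the Ccl5 split and at 65.7 and 66.1 CPM in sh-B7-H3 (1) CD4 cells. In CD8 cells under the split it was at 35.1 and 36.3 against 38.9 and 37.6 CPM, and in Foxp3 cells at 119 and 124 against 133 and 145 CPM. The groups did not overlap in these classes, with the knockdown libraries slightly higher. The share of all genes that separate in this way was not counted, so nothing is read from such separation, here or for the genes below. Among cells without a Ccl5 UMI the log2 fold change was 0.03 in CD4, 0.07 in CD8 and 0.11 in Foxp3 cells, and in Foxp3 cells it turned to -0.17 with cells thinned to 2000 UMIs and to -0.24 under stricter gates. Over the split they overlapped, at 128 and 96.3 against 109.8 and 116 CPM in CD4 cells and 91.1 and 78.0 against 83.3 and 78.3 CPM in CD8 cells. The knockdown log2 fold change of Nr3c1 lay between -0.03 and 0.20 in the 5 classes, with standard errors of 0.0756 to 0.137.

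Tsc22d3 (GILZ) stood at 163 and 168 CPM in sh-NC CD4 cells under the split and at 83.5 and 91.9 CPM in the sh-B7-H3 (1) libraries. In CD8 cells under the split its levels were 164 and 149 against 78.3 and 80.2 CPM. In Foxp3 cells they were 168 and 203 against 119 and 111 CPM. The gene was thus lower in both knockdown libraries than in both control libraries in each class under the split, regulatory cells included. Nothing is read from this separation.

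Over the split Tsc22d3 was lower than under it in the CD4 and CD8 cells of every library. CD4 cells held 43.0 and 20.9 CPM in the sh-NC libraries and 15.9 and 14.9 CPM in the sh-B7-H3 (1) libraries, on 21 to 58 UMIs per sum. CD8 cells held 72.7 and 61.1 against 25.9 and 28.4 CPM. The log2 fold changes were -0.88 (standard error 0.0602) in CD4 and -0.90 (0.0611) in CD8 cells under the split, -0.99 (0.281) and -1.25 (0.121) over it, and -0.67 (0.134) in Foxp3 cells. The value of CD4 cells over the split rested on the sh-NC library 1, and was -0.39 without it and -1.42 without sh-NC library 2.

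**Figure D1:**
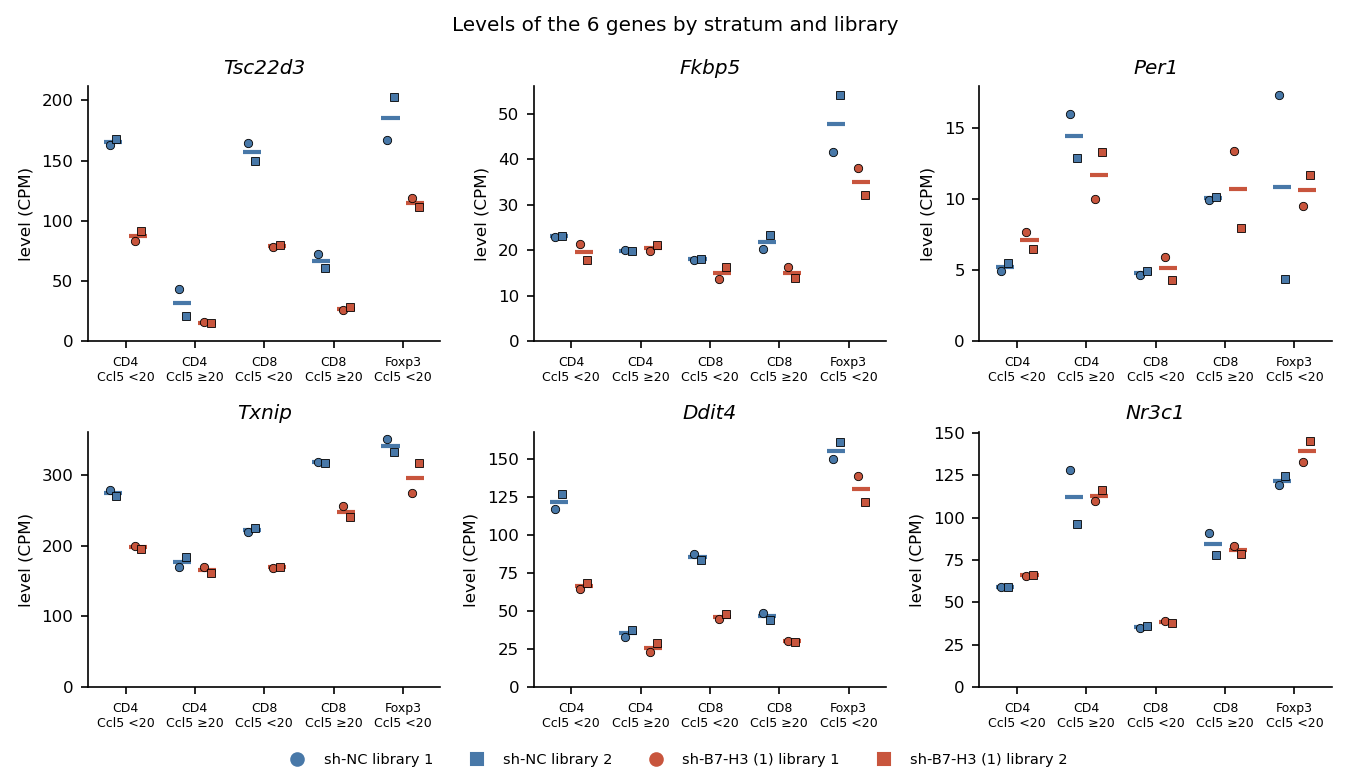
Levels in CPM (vertical axes, from 0) of the 6 genes in 5 classes of T cells, with a point per library (circle library 1, square library 2, blue sh-NC, red sh-B7-H3 (1)) and a bar at the group mean. Tsc22d3 and Ddit4 points of the knockdown libraries lie under those of the control libraries in all 5 classes. Those of Fkbp5 and Txnip do so in all but CD4 cells over the split, and those of Nr3c1 and Per1 do not. The share of all genes that separate in this way was not counted.

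Ddit4, the mTORC1 inhibitor, was at 117 and 127 CPM in sh-NC CD4 cells under the split and at 64.5 and 68.6 CPM in the sh-B7-H3 (1) libraries. CD8 cells under the split held 87.5 and 83.7 against 44.6 and 48.2 CPM. Foxp3 cells held 150.2 and 161 against 139 and 122 CPM. As with Tsc22d3, the knockdown libraries lay under the control libraries throughout, a separation from which nothing is read. The log2 fold change was smallest in the Foxp3 cells. The log2 fold changes were -0.84 (0.0705) in CD4 and -0.79 (0.0685) in CD8 cells under the split, -0.36 (0.217) and -0.58 (0.123) over it, and -0.24 (0.132) in Foxp3 cells. The last of these turned to 0.20 when the class was limited to cells without a Ccl5 UMI.

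Txnip, which restrains thioredoxin and glucose uptake, was at 278 and 269.8 against 200.4 and 195 CPM in CD4 cells under the split, and at 220.1 and 225 against 169 and 171 CPM in the CD8 cells. CD4 cells over the split overlapped, at 170.0 and 184 against 170.4 and 162 CPM. CD8 cells over the split did not overlap, at 319 and 318 against 256.1 and 240.2 CPM. Its log2 fold changes ran from -0.44 (0.0437) in CD4 cells under the split to -0.03 (0.0902) in CD4 cells over it, with -0.30, -0.32 and -0.21 in the other classes.

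Fkbp5 and Per1 are textbook targets of the receptor. Fkbp5 was lower in the knockdown libraries in every class but CD4 cells over the split, while Per1 had changes of both signs over the 5 classes. Fkbp5 was at 23.0 and 23.1 against 21.3 and 17.9 CPM in CD4 cells and at 17.9 and 18.1 against 13.7 and 16.4 CPM in CD8 cells under the split, a log2 fold change of -0.22 (0.129) and -0.15 (0.128). Over the split the changes were 0.11 (0.253) in CD4 and -0.51 (0.180) in CD8 cells, and in Foxp3 cells -0.42 (0.237). The groups of Fkbp5 overlapped in CD4 cells over the split, at 20.0 and 19.9 against 19.8 and 21.3 CPM, and in no other class. Per1 had 6 to 104 UMIs per fitted sum, and its levels of 4.31 to 7.70 CPM in CD4 and CD8 cells under the split left changes of 0.46 (0.237) and 0.13 (0.229). Its groups overlapped in 4 of the 5 classes. The share of all genes that separate was not counted, so nothing is read from these overlaps. Gm22146, on the other strand within Fkbp5, had 374 UMIs in all and up to 6.92 CPM in a sum, and the strand setting of the counts is not given in the sources used here.

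The limit for a call was an adjusted p under 0.05 with a log2 fold change of at least 1, and in the knockdown comparison 1 of the 6 genes passed it in any class, Tsc22d3 in CD8 cells over the split. Over all genes tested, the limit was passed by 2.74% in CD4 cells and 1.46% in CD8 cells under the split, by 0.713% and 1.93% over it, and by 0.562% in Foxp3 cells. By adjusted p alone 3 of the 6 genes passed in CD4 and 3 in CD8 cells under the split, beside 10.9% and 8.87% of all genes, 0 and 3 over it, beside 3.0% and 11.1%, and 1 in Foxp3 cells, beside 2.79%. Since this contrast chose the genes, nothing is read from the counts.

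**Figure D2:**
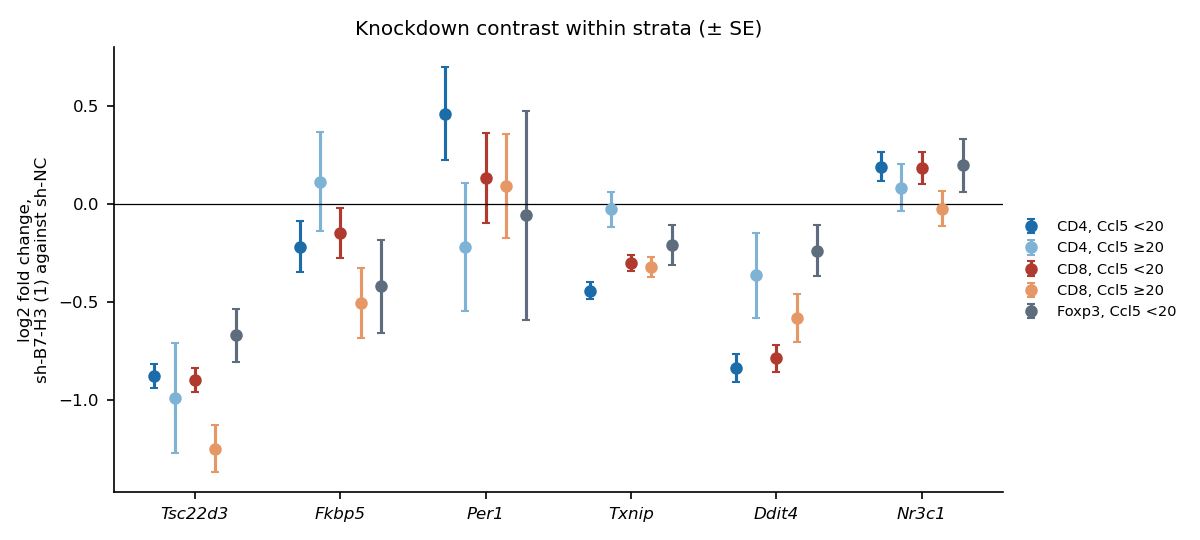
Knockdown log2 fold changes (vertical axis, sh-B7-H3 (1) against sh-NC, from edgeR fits to 2 libraries per group) with bars of 1 standard error, by gene and class. The values of Tsc22d3 run from -1.25 to -0.67 and those of Ddit4 from -0.84 to -0.24, while Nr3c1 stays between -0.03 and 0.20.

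The makeup of the classes also differed between the groups, though not in the same direction in every class. Under the split, the effector marker list summed to 126 and 137 CPM in sh-NC CD4 cells against 1101 and 1077 CPM in the sh-B7-H3 (1) libraries, and to 628 and 658 against 1053 and 990.3 CPM in CD8 cells. The naive list ran the other way, at 1745 and 1733 against 1426 and 1413 CPM in CD4 cells and 1526 and 1527 against 1248 and 1230.0 CPM in CD8 cells. Over the split, in CD8 cells, the naive list was at 419.6 and 352 against 122 and 115 CPM and the effector list at 22520 and 22902 against 29725 and 29616 CPM, beside the Tsc22d3 change of -1.25 there. In CD4 cells over the split the effector list went the other way, at 38741 and 37524 against 29235 and 27468 CPM. The naive list there was at 119 and 86.4 against 59.6 and 72.5 CPM, and the Tsc22d3 change was -0.99. Foxp3 cells under the split had 1037 and 991 against 589.5 and 582 CPM of the naive list. Genes of dissociation stress summed to 834 and 816 against 549 and 559 CPM in CD8 cells. Limiting the lower class to cells with no Ccl5 UMI left Tsc22d3 at -0.71 in CD4 and -0.69 in CD8 cells. In Foxp3 cells without a Ccl5 UMI Tsc22d3 was at -0.43. Ddit4 in cells without a Ccl5 UMI was at -0.84 in CD4 and -0.65 in CD8 cells. Both genes thus remained lower in the knockdown libraries among CD4 and CD8 cells without a Ccl5 UMI, and the part of other traits of the cells was not tested.

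Myeloid markers in CD4 cells under the split summed to 174 and 51.5 CPM in the sh-NC and 243 and 210.4 CPM in the sh-B7-H3 (1) libraries, and B cell markers to 218 and 202 against 169 and 156 CPM. Without cells that held 3 or more UMIs of these markers, Tsc22d3 stood at -0.79 in CD4 and -0.78 in CD8 cells. The median share of mitochondrial UMIs was 3.54 and 3.48% against 4.08 and 4.10% in those CD4 cells. Free RNA was read from droplets with at most 100 UMIs, where Tsc22d3 was at 202 and 209 against 93.8 and 81.2 CPM and Ddit4 at 123 and 129.5 against 74.1 and 73.9 CPM. Cd8a and Cd8b1 in CD4 cells were at 3.42 and 3.23% of their level in those droplets in the sh-NC libraries and at 5.95 and 5.68% in the sh-B7-H3 (1) libraries. Ccl5 itself was at 1212 and 1417 against 4279 and 4741 CPM in those droplets, and cells with no Ccl5 UMI numbered 3594 and 2817 against 329 and 341, so the Ccl5 classes and the effector list share this difference in free RNA, and its part in them was not tested. After subtraction at that ratio, the log2 ratio of Tsc22d3 went from -0.92 to -0.90 in CD4 and from -0.98 to -0.98 in CD8 cells under the split, and from -1.06 to -1.25 and from -1.30 to -1.41 over it.

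The share of cells with a UMI was read at equal depth. With each cell thinned to 1000 UMIs, 14.2 ± 0.0805% (SD, n = 2 libraries) of sh-NC CD4 cells under the split had a Tsc22d3 UMI against 8.76 ± 1.54% in the sh-B7-H3 (1) libraries, and 14.8 ± 1.01% against 7.40 ± 0.266% of CD8 cells. Unthinned, these shares were 59.9 and 61.3% against 37.4 and 38.7% in CD4 cells and 67.2 and 64.6% against 43.6 and 46.7% in CD8 cells. Ddit4 went from 10.1 ± 0.202% to 7.76 ± 0.408% of thinned CD4 cells and from 8.28 ± 0.693% to 5.27 ± 0.444% of CD8 cells. In Foxp3 cells under the split Tsc22d3 was at 17.4 ± 4.24% against 11.4 ± 3.48% of thinned cells, with the nearest libraries at 14.4 and 13.8%, while Ddit4 went the other way than its CPM, at 13.7 ± 0.346% against 16.0 ± 2.41% (unthinned 55.7 and 54.3% against 49.6 and 45.1%). Thinning left out 0 to 30 cells per class and library, and no class here is known to lack these genes, so no background share was at hand.

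The whole population of called cells was compared as found and at a fixed makeup. Tsc22d3 was at 155 and 147 CPM in the sh-NC and 54.2 and 56.8 CPM in the sh-B7-H3 (1) libraries, a log2 ratio of -1.44. With all libraries given the same share of cells in each class, the ratio was -0.97. Ddit4 went from -1.05 to -0.76 in the same step. Nr3c1 was higher in the whole population, at 52.4 and 52.2 against 76.6 and 73.5 CPM, and its ratio of 0.52 came to 0.05 at equal shares. Per1 likewise went from 0.57 to 0.07, while Txnip (-0.30 and -0.37) and Fkbp5 (-0.23 and -0.29) hardly moved.

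**Figure D3:**
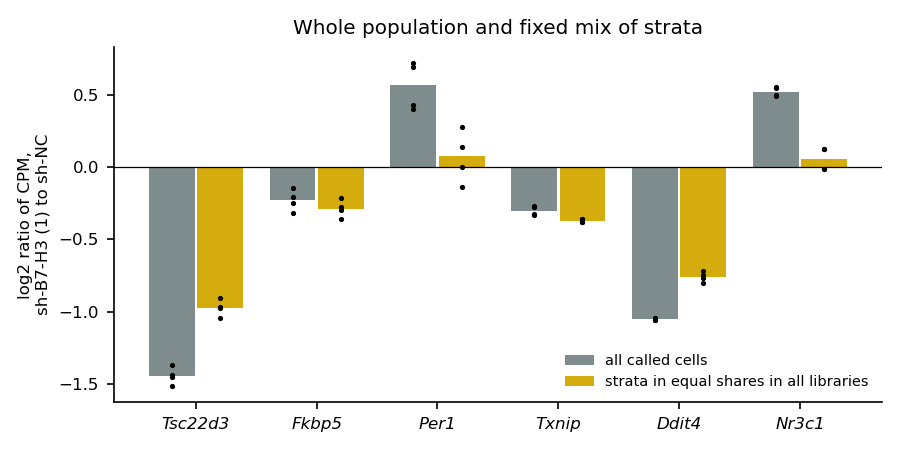
Log2 ratio of CPM, sh-B7-H3 (1) to sh-NC (vertical axis), for each gene over all called cells (grey bars) and with each class of cells at the same share in all libraries (yellow bars), with dots for the 4 pairings of a knockdown with a control library. For Tsc22d3 the bar goes from -1.44 to -0.97, and for Nr3c1 from 0.52 to 0.05.

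The Ccl5 split was not the contrast that chose the genes, but it is not independent of that choice. Cells over the split were 11.24 and 14.02% of called cells in the sh-NC and 53.01 and 52.25% in the sh-B7-H3 (1) libraries. The knockdown ratio of Tsc22d3 went from -1.44 over all called cells to -0.97 at equal shares. The p-values of the split are therefore no independent support for the choice. It was tested within libraries by edgeR's quasi-likelihood test, with p adjusted by Benjamini-Hochberg over all genes. Tsc22d3 fell most of the 6, and Ddit4 fell with it, while the receptor gene and Per1 rose. In CD4 cells over the split Tsc22d3 had a log2 fold change of -2.78 (standard error 0.130, adjusted p = 4.19e-08) and in CD8 cells one of -1.70 (0.0779, adjusted p = 3.31e-08), lower in 4 of 4 libraries. Ddit4 was at -1.85 (0.110, adjusted p = 2.02e-07) in CD4 and at -1.10 (0.0698, adjusted p = 2.76e-07) in CD8 cells, lower again in 4 of 4 libraries. The CD8 value of Ddit4 was -0.98 with doublets left in.

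These 2 of 6 genes passed the limit in each lineage, where 20.8% of 9759 genes did so in CD4 and 17.4% of 9954 genes in CD8 cells. By adjusted p alone, 6 of 6 genes passed in CD4 cells, beside 53.4% of all genes, and 5 of 6 in CD8 cells, beside 55.2%. Nr3c1 rose by 0.52 (0.0806, adjusted p = 0.000254) in CD4 and by 0.83 (0.0741, adjusted p = 3.89e-06) in CD8 cells. Per1 rose by 0.74 (0.238, adjusted p = 0.0230) and 0.71 (0.157, adjusted p = 0.00265), though its adjusted p reached 0.0958 and 0.140 over the alternatives, the former without sh-NC library 1. Fkbp5 was at -0.35 (adjusted p = 0.0483, and 0.0112 to 0.924 over the alternatives, with 0.124 to 0.139 without sh-NC library 1, sh-NC library 2 or sh-B7-H3 (1) library 1) in CD4 and -0.19 (adjusted p = 0.212) in CD8 cells.

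Txnip went in opposite directions. It fell by 0.75 on the log2 scale (0.0874, adjusted p = 3.14e-05) in CD4 cells over the split and rose by 0.19 (0.0446, adjusted p = 0.00364) in CD8 cells, the latter with adjusted p = 0.148 when libraries were not blocked (0.148 was the highest over the alternatives, and 1.02e-06 the lowest). Scaling matters for sizes here: with plain library totals the median of all genes sat at 0.32 in CD4 and 0.34 in CD8 cells instead of -0.002 and 0.003. The split of calls then went from 1078 higher and 949 lower to 1621 and 649 in CD4 cells, and from 933 and 801 to 1481 and 484 in CD8 cells. On that scale Tsc22d3 stood at -2.46 and -1.37, Ddit4 at -1.53 and -0.76, Nr3c1 at 0.85 and 1.17, Per1 at 1.06 and 1.05 and Txnip at -0.43 and 0.53, all in CD4 and CD8 cells in turn, while Fkbp5 was at -0.03 in CD4 cells and turned to 0.14 in CD8 cells. Ddit4 in CD8 cells was then short of the limit, while Nr3c1 in CD8 cells and Per1 in both lineages passed it.

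**Figure D4:**
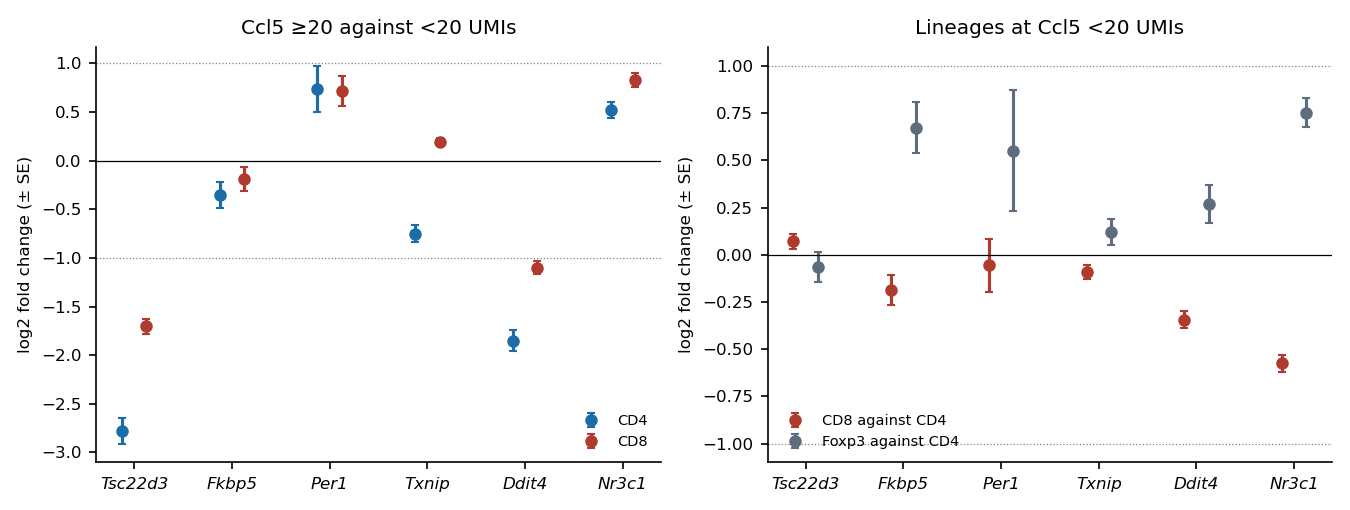
Log2 fold changes of the 6 genes with bars of 1 standard error (vertical axes), in the left panel for cells with at least 20 against under 20 Ccl5 UMIs in CD4 and CD8 cells, and in the right panel for CD8 and Foxp3 cells against CD4 cells under the split. Dotted lines mark 1 and -1, which only Tsc22d3 and Ddit4 in the left panel cross.

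Whether the split acted alike in the lineages was asked by an interaction test added after the data were seen. The difference, CD8 minus CD4, was 1.04 for Tsc22d3 (standard error 0.153, adjusted p = 0.000111), 0.92 for Txnip (0.0864, adjusted p = 8.82e-07) and 0.73 for Ddit4 (0.130, adjusted p = 0.000707). Tsc22d3 and Ddit4 thus fell less over the split in CD8 than in CD4 cells, while Txnip fell in CD4 and rose in CD8 cells. Nr3c1 (0.28, adjusted p = 0.0610), Fkbp5 (0.08, adjusted p = 0.839) and Per1 (-0.07, adjusted p = 0.911) did not pass. By the full limit 1 of 6 passed, beside 5.21% of 10298 genes (3 of 6 by adjusted p alone, beside 15.9%), and that call was lost without sh-NC library 2, at 0.89. Thinned to 2000 UMIs per cell, Ddit4 had 0.52 with adjusted p = 0.172 (6.84e-07 to 0.172 over the alternatives).

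Finer bins of Ccl5 showed where the levels turned. In sh-NC CD4 cells Tsc22d3 averaged 169 ± 4.97 CPM (SD, n = 2 libraries) with no Ccl5 UMI, 149 ± 4.09 at 1 to 4 UMIs, and 24.3 ± 14.9 at 20 to 49 UMIs. The sh-B7-H3 (1) CD4 cells went from 94.5 ± 12.0 and 90.7 ± 4.61 to 13.8 ± 2.16 CPM. In CD8 cells the slope was gentler, from 161 ± 9.75 over 136 ± 2.50 at 5 to 19 UMIs to 49.9 ± 2.65 CPM at 100 and over in the sh-NC libraries. The sh-B7-H3 (1) CD8 cells had dropped to 35.9 ± 5.76 CPM by 5 to 19 UMIs. Knockdown libraries lay under control libraries in all 6 bins of CD8 cells for Tsc22d3. In CD4 cells they overlapped at 20 to 49 UMIs (34.9 and 13.8 against 12.3 and 15.3 CPM) and at 50 to 99 UMIs (47.9 and 11.8 against 8.52 and 15.2 CPM). The bin at 5 to 19 UMIs in sh-NC CD4 cells held 8 and 15 cells and is not read.

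In the same bins Ddit4 of sh-NC CD8 cells fell from 88.4 ± 3.32 to 39.3 ± 7.22 CPM, and in the sh-B7-H3 (1) libraries from 50.8 ± 0.855 to 30.6 ± 0.505 CPM. Txnip of sh-NC CD8 cells stepped up from 223 ± 4.04 to 333 ± 11.0 CPM at 20 to 49 UMIs. Nr3c1 stepped up at about the same place, from 35.6 ± 0.284 with no Ccl5 UMI to 97.1 ± 13.1 CPM at 50 to 99 UMIs. In CD8 cells, then, the bins rich in receptor mRNA were those poor in GILZ mRNA, while Foxp3 cells had high levels of both.

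**Figure D5:**
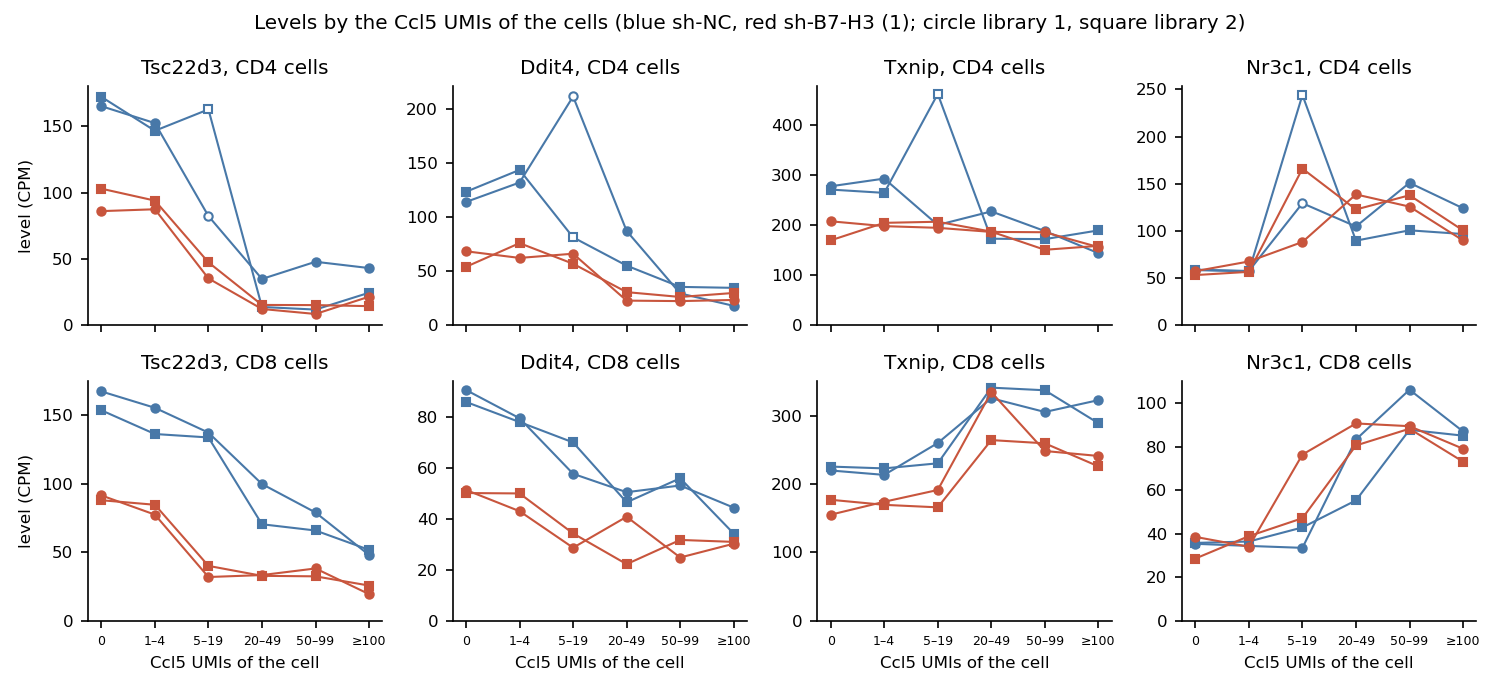
Levels in CPM (vertical axes, from 0) of Tsc22d3, Ddit4, Txnip and Nr3c1 in CD4 (upper) and CD8 cells (lower) binned by the Ccl5 UMIs of the cell (horizontal axis), with a line per library (blue sh-NC, red sh-B7-H3 (1)) and open symbols for sums of under 20 cells. In sh-NC CD8 cells Tsc22d3 goes from 161 to 49.9 CPM across the bins while Nr3c1 goes from 35.6 to 86.1 CPM.

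The knockdown difference was also compared between Ccl5 classes and lineages. In CD4 cells 0 of 6 genes passed the limit for a difference between the Ccl5 classes, beside 2.21% of all genes, and in CD8 cells 0 of 6, beside 1.6%. By adjusted p alone these were 1 of 6, beside 4.09%, and 0 of 6, beside 4.16%. These differences are built from the knockdown values that chose the genes, so they too are a description. Txnip in CD4 cells differed by 0.42 (standard error 0.104), its log2 fold change being nearer to 0 over the split, and by 0.24 to 0.52 over the alternatives. Tsc22d3 in CD8 cells differed by -0.36 (0.126). Between CD8 and CD4 cells under the split 0 of 6 passed, beside 0.306% (1.37% by adjusted p alone, again with 0 of 6), with differences from -0.32 to 0.14. Tsc22d3 there differed by -0.03 (0.102).

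Among cells under the split the lineages were set side by side within libraries. Against CD4 cells, CD8 cells had less Nr3c1 (-0.58, standard error 0.0459, adjusted p = 1.82e-07) and less Ddit4 (-0.34, 0.0439, adjusted p = 2.23e-05, and 4.18e-09 to 0.335 over the alternatives, the latter with libraries not blocked), lower in 4 of 4 libraries each. No gene of the 6 passed the full limit, beside 5.83% of 10505 genes, and 2 of 6 passed by adjusted p alone, beside 34.7%. Tsc22d3 differed by 0.07 (0.0410, adjusted p = 0.205), which turned to -0.10 with plain totals, where the median of all genes sat at -0.18 and the calls went from 218 higher and 394 lower to 170 and 512.

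In mean CPM, before the scaling of the fits, Foxp3 cells had the highest levels of all 6 genes under the split in both groups. The share of all genes with that order was not counted, so nothing is read from it. For Per1 the sh-NC mean rested on library 1 (17.3 CPM). Library 2 held 4.39 CPM on 6 UMIs in Foxp3 cells, under the 5.52 CPM of its CD4 cells. In the fits Nr3c1 was higher in Foxp3 than in CD4 cells by 0.75 (0.0772, adjusted p = 1.10e-07) and Fkbp5 by 0.67 (0.135, adjusted p = 0.000466). Fkbp5 stood at 41.5 and 54.1 CPM in Foxp3 cells of the sh-NC and 38.03 and 32.24 CPM in those of the sh-B7-H3 (1) libraries. Ddit4 was at 0.27 (0.100, adjusted p = 0.0409), which ran from 0.000120 to 0.328 over the alternatives and was 0.259 and 0.127 without sh-B7-H3 (1) library 1 or 2. None of the 6 passed the full limit, beside 11.2% of 9013 genes, and 3 of 6 passed by adjusted p alone, beside 37.2%. Tsc22d3 was at -0.06 (0.0783, adjusted p = 0.565), a value that turned to 0.24 with plain totals, where the median of all genes sat at 0.29 and calls went from 703 higher and 304 lower to 1036 and 155. The order for Nr3c1 was thus Foxp3, CD4 and CD8 cells, each step past the adjusted p, while neither the CD8 nor the Foxp3 difference of Tsc22d3 from CD4 cells passed. Over the alternatives their adjusted p ran from 0.0129 to 0.959 and from 0.0179 to 0.978, and Foxp3 cells were not compared with CD8 cells.

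Other genes of the pathway came from lists whose members were counted against the same limit. Of the receptor's chaperones and cofactors, 0 of 15 tested genes passed in the Ccl5 split of either lineage, with medians of -0.23 and -0.23. The share over all genes was 20.8% in CD4 cells (1078 higher and 949 lower) and 17.4% in CD8 cells (933 and 801). Of other glucocorticoid-induced genes, 4 rose and 6 fell of 20 in CD4 cells and 5 rose and 5 fell of 20 in CD8 cells. In CD4 cells these included Il7r (the IL-7 receptor chain, -4.43), the cell cycle regulator Rgcc (-3.91), the chemokine receptor Cxcr4 (-2.54) and Irs2 (-2.21). In CD8 cells the metallothioneins Mt1 (4.87) and Mt2 (4.32) rose, and Rgcc (-4.00) and Irs2 (-2.85) fell.

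Against the same shares of 20.8% and 17.4%, FOXO targets and resting T cell genes fell in 11 of 17 cases in each lineage and rose in 0, with medians of -2.69 in CD4 and -2.21 in CD8 cells. Ccr7, the lymph node homing receptor, was at -5.46 and -3.92, and the transcription factor Tcf7 at -5.19 and -3.10. Il7r and Irs2 stand in both lists. Of clock genes, 4 rose and 2 fell of 13 in CD4 cells and 3 rose and 1 fell of 12 in CD8 cells, led by Bhlhe41 (3.96) and Nfil3 (2.85) in CD4 and Bhlhe40 (4.70) in CD8 cells. Of the glucose and stress partners of Txnip and Ddit4, 2 rose and 1 fell of 15 and 3 rose and 1 fell of 16, among them the kinase Pdk1 (-3.11 and -2.17). Of inflammatory genes that glucocorticoids repress, 4 rose and 5 fell of 13 in CD4 cells and 4 rose and 1 fell of 12 in CD8 cells, with the chemokine Ccl3 at 5.48 and 4.99 and Fos, an AP-1 subunit, at -2.83 in CD4 cells. Of a list of TSC22 and FKBP family genes that also held Arrdc genes, only Tsc22d1 (1.30, CD4) and Arrdc3 (1.08, CD8) passed among 10 and 11 tested. Arrdc3 is a relative of neither GILZ nor FKBP51.

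Between lineages under the split the calls were 5.83% of all genes (218 higher and 394 lower) for CD8 against CD4 cells and 11.2% (703 and 304) for Foxp3 against CD4 cells. In CD8 against CD4 cells 1 of 22 other glucocorticoid-induced genes was higher (Rgcc, 1.19) and 4 were lower, among them the decoy receptor Il1r2 (-3.99) and annexin A1 (Anxa1, -3.94). Of 17 FOXO and resting genes and of 16 receptor partners, 0 passed in either direction there. Of 13 inflammatory genes 1 was higher and 6 were lower, with a median of -0.82, and of 13 clock genes 2 were lower. In Foxp3 against CD4 cells 5 of 20 glucocorticoid-induced genes were higher, led by Il1r2 (3.74) and Mt1 (3.18) and including Klf9, and 2 were lower, Rgcc (-1.39) among them. Clock genes were higher in 4 and lower in 1 of 10 cases in that comparison, with the nuclear receptor Rora at 3.14. There, 6 of 17 FOXO and resting genes were lower and 0 higher, and 3 of 12 inflammatory genes were higher and 4 lower.

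In the knockdown comparison 4 of 24 other glucocorticoid-induced genes rose in CD4 cells under the split and 0 fell, where over all genes 267 rose and 24 fell of 10631 (2.74% called). The 4 were Mt2 (4.53), Il1r2 (2.03), Mt1 (1.43) and Anxa1 (1.13), and the median of the list was 0.003. Il1r2 and Mt1 also led this list in Foxp3 against CD4 cells. The regulatory markers were at 44.9 and 55.1 CPM in sh-NC against 103 and 103 CPM in sh-B7-H3 (1) CD4 cells under the split. Their part in the rise was not tested. Ccl3 (3.28), Ccl4 (3.09) and Ifng (1.63) were the 3 of 14 inflammatory genes that rose there, and Hlf, Bhlhe40 and Nfil3 the 3 of 14 clock genes. In CD8 cells under the split, where 141 rose and 16 fell of 10785 genes (1.46%), Mt1 (1.96) was the sole call of 20 in the glucocorticoid list, while 4 of 13 inflammatory genes rose and Fos (-1.45) fell. In CD8 cells over the split, where 87 rose and 100 fell of 9667 genes (1.93%), 7 of 16 FOXO and resting genes fell and 0 rose, with a median of -0.86 against -0.002 over all genes, among them Klf2 (-1.90), Il7r (-1.87) and Tcf7 (-1.72). Rgcc (-1.34) and Cxcr4 (-1.33) also fell there. CD4 cells over the split, where 0.713% of genes were called, had 1 call in each of these lists, Dusp1 (-1.15) and Klf2 (-1.21).

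Whether the genes moved together was described by the correlation of log2 CPM over 21 sums of class and library with at least 20 cells. The sums share libraries and cell pools, so no p is attached, and they mix sh-NC and sh-B7-H3 (1) libraries, so the values in part restate the knockdown difference that chose the genes. Tsc22d3 and Ddit4 went together (Pearson's r = 0.87), Per1 went with Nr3c1 (0.73), and Txnip and Fkbp5 sat nearer to Ddit4 (0.65 and 0.62). Tsc22d3 ran against Per1 (-0.56) and, less so, against Nr3c1 (-0.31). Among 2208 genes of at least 50 CPM on average, Ddit4 ranked 51 in likeness to Tsc22d3, Txnip 290 and Nr3c1 1222. The genes most like Tsc22d3 were Hnrnpf (0.96), Otulinl (0.95), Arhgdib (0.95) and Atp5mpl (0.95), none of them on the glucocorticoid lists. Ddit4 and Nr3c1 had r = 0.04.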

How the data were processed

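Single-cell RNA and surface-tag UMI counts of 4 libraries were used, as the authors deposited them in filtered matrices, with raw matrices for free RNA. Per the labels and methods, reads were aligned to mm10 with Cell Ranger, and Seurat 4.0.0 is named in the submitters' processing notes. Whether counting used strand is not given in the sources used here. An antisense gene, Gm15441, overlaps Txnip but had 97 UMIs in all and at most 1.65 CPM per sum. Gm22146, opposite Fkbp5, had 374 UMIs and up to 6.92 CPM.

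Cells with 200 to 3000 genes and at most 5% mitochondrial UMIs were kept, and doublets were removed by neighbours among simulated doublets (26.0 to 29.9% of cells tested). Cells with both Cd4 and Cd8 UMIs made up 40.8 to 46.6% of removed and 2.83 to 4.48% of kept cells. UMI counts were summed per library, lineage and Ccl5 class, leaving out sums of under 20 cells. edgeR 4.0.16 in R 4.3.3 (TMM, filterByExpr, glmQLFit, glmQLFTest) was fitted to all genes, with library as a covariate within libraries and no block between groups. DESeq2 1.42.0 was an alternative. Named genes were the 6 genes in every comparison and, per list and comparison, up to 4 of the largest calls. Genes, lists and tests were chosen with earlier results of these data known, and the interaction of the Ccl5 split with lineage was added after the data were seen. Intervals and errors cover the libraries of these pools only. Libraries of a group differed by 1.34 to 1.63 times counting noise per gene (chi-square), so none was a copy of another. That measure cannot tell separate pools of tumors from repeated captures of a single pool, since both hold different cells.

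The fits were tested on simulated data. Gene models were GENCODE on GRCm38. One alternative and some values of single list genes are not reported here. The columns of the deposited tables all belonged to the 4 samples.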

Additional observations from a re-analysis of the deposited data

Results flagged for a closer look

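Differences between lineages in the Ccl5 split stood out for 3 genes, by an interaction test that was added after the data were seen. The log2 difference, CD8 minus CD4, was 1.04 for Tsc22d3 (adjusted p = 0.000111 by edgeR's quasi-likelihood test over all genes), 0.727 for Ddit4 (adjusted p = 0.000707) and 0.915 for Txnip (adjusted p = 8.82e-07). Over the alternatives the adjusted p ran from 2.96e-13 to 0.0253 for Tsc22d3, from 6.84e-07 to 0.172 for Ddit4 and from 1.37e-24 to 8.26e-05 for Txnip. For Txnip the directions were opposite, lower over the split in CD4 and higher in CD8 cells in all 4 libraries. Beside these values, the naive marker list summed to 119 and 86.4 CPM in sh-NC CD4 cells over the split and to 419.6 and 352 CPM in the CD8 cells, and in the sh-B7-H3 (1) libraries to 59.6 and 72.5 against 122 and 115 CPM. Its part in the difference was not tested.

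The knockdown log2 fold change of Txnip in CD4 cells was nearer to 0 over the Ccl5 split than under it, by 0.422 in edgeR's interaction term. The knockdown contrast chose the genes, so the value is a description with no test, and it ran from 0.24 to 0.52 over the alternatives.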

How the results depend on the processing

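Leaving out 1 library at a time left 2 of the 6 genes past the limit in each Ccl5 split, 1 in the knockdown comparison of CD8 cells over the split, 0 to 1 in CD4 cells over it (1 without sh-NC library 2), 0 to 2 in the interaction of split and lineage (0 without sh-NC library 2, 2 without sh-B7-H3 (1) library 2), and 0 elsewhere. By adjusted p alone the number of the 6 genes that passed was 3, 3, 3 and 1 in the knockdown comparison (CD4 under, CD8 under, CD8 over, Foxp3), 6 and 5 in the Ccl5 splits, 2 and 3 in the lineage comparisons, 1 in the knockdown interaction of CD4 cells and 3 in the interaction of split and lineage, beside the shares of all genes given with those comparisons. The single call of the last at the full limit fell to 0 with doublets left in, Ccl5 taken per 10000 UMIs, stricter gates, cells with myeloid or B UMIs removed, or thinning to 2000 UMIs. Doublets left in gave 1 in the CD8 split and 1 in knockdown CD4 cells over the split, as did thinning and plain totals there. Thinning gave 1 in knockdown CD8 cells under the split, stricter gates 1 in the CD4 cells, and plain totals 1 for Foxp3 against CD4. The knockdown contrast chose the genes, so its counts and those of its interactions are a description under every alternative. Nothing is read from them.

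Outside the knockdown comparison, values that changed sign were Tsc22d3 for CD8 against CD4 (-0.10, plain totals), Per1 there (0.11 thinned, -0.14 to 0.0034 without 1 library, the sign changing without sh-B7-H3 (1) library 2), Fkbp5 in the CD8 split (0.14, plain totals), Tsc22d3 for Foxp3 against CD4 (0.021 thinned, 0.24 plain totals, -0.12 to 0.015 without 1 library, the sign changing without sh-NC library 1) and Per1 there (-0.064 to 0.87, the sign changing without sh-NC library 1). Among knockdown values, which have no test, those that crossed 0 under some alternative were Ddit4 in Foxp3 cells (-0.39 to 0.20), Nr3c1 in Foxp3 cells (-0.24 to 0.27), CD4 over (-0.10 to 0.29) and CD8 over (-0.15 to 0.10), Txnip in CD4 over (-0.12 to 0.07), Fkbp5 in CD4 over (-0.01 to 0.45), and Per1 in all but CD4 over (within -0.73 to 1.02). The causes were not tested.

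Counts of calls over all genes moved by over 1.5 times as follows. The knockdown counts of 291, 64, 157, 187 and 43 (CD4 under and over, CD8 under and over, Foxp3) were 154, 7, 74, 75 and 8 by DESeq2, 1160, 269, 957, 1077 and 213 by adjusted p alone, and 144, 78, 51 and 14 thinned (CD4 under, CD8 under and over, Foxp3). With no Ccl5 UMI they were 42, 31 and 27 under the split, and with the split at 10 UMIs 181 (CD4 under) and 295 (CD8 over). CD4 over gave 111 with doublets, 97 with no upper gene limit and 126 with no filter, and Foxp3 26 with doublets. Without 1 library, CD4 under gave 187 and 188, CD8 under 93, and CD4 over 3, 7 and 106 (without sh-B7-H3 (1) library 2, library 1 and sh-NC library 2). The counts of 2027 and 1734 (splits), 612 and 1007 (lineages) were 1237, 1127, 317 and 640 thinned and 5212, 5497, 3642 and 3351 by adjusted p alone, with 954 for CD8 against CD4 unfiltered and 621 for Foxp3 under stricter gates. The interactions of 229, 168, 34 and 537 were 424, 437, 152 and 1638 by adjusted p alone, 108, 81 and 8 by DESeq2 (first 3), and 87, 61 and 290 thinned (all but the 34). Otherwise the 229 was 142 (split at 10) and 152 (without sh-B7-H3 (1) library 2), the 168 was 109 (without its library 1), and the 34 ran from 18 to 56.

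Replicate numbers shared between groups name libraries only. A block on them left 1 of the 6 genes past the limit in knockdown CD8 cells over the split and 0 in the other classes, and the deviations of same-numbered libraries correlated by -0.031 to 0.028. Since the knockdown contrast chose the genes, the count with the block is a description too. With 2 libraries per group from pooled tumors, and Per1 and Fkbp5 at few UMIs, small changes of these genes could have been missed, which was not tested. Fits planned for Foxp3 cells over the split were not run.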

Other observations

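Surface tags were read within cells under the Ccl5 split, by the log2 ratio of a gene's level in the 25% of cells highest against the 25% lowest for a tag. In CD4 cells the cells with most CD127 (the IL-7 receptor chain) had more Tsc22d3 in all 4 libraries, by 0.16 to 0.78, and less Nr3c1, by -1.10 to -0.17. In CD8 cells the signs were mixed, at -0.27 to 0.29 for Tsc22d3 and -0.54 to 0.01 for Nr3c1. Cells with most CD39 had more Fkbp5 in CD4 cells (0.06 to 0.97) and more Nr3c1 in CD8 cells (0.08 to 0.89) in all 4 libraries. Signs were mixed for Fkbp5 in CD8 cells (-0.35 to 0.23) and for Nr3c1 in CD4 cells (-0.02 to 0.87). Cells with most CD69 had more Tsc22d3 in all 4 libraries, by 0.0015 to 0.58 in CD4 and 0.0079 to 0.41 in CD8 cells. Of 60 combinations of tag, lineage and gene, 11 had the same sign in all 4 libraries, and no test was run. The combinations named here were picked after their values were seen. Some of the tags, CD44 among them, had a median of at most 1 UMI per cell and separate little.

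Within single classes and libraries, cell by cell, the median Pearson's r over 20 sets of cells thinned to 1000 UMIs lay between -0.0196 and 0.0146 for all 15 pairs of the 6 genes, which at such sparse counts is no finding.

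In Foxp3 cells over the split, with 9 to 24 cells per library, Tsc22d3 was at 146 and 249.1 CPM in the sh-NC and at 74.1 and 46.1 CPM in the sh-B7-H3 (1) libraries, on 7 to 15 UMIs each.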
